A study of Triticum aestivum with 24 samples.

Results

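Recovery from heat was described in leaves of wheat (Triticum aestivum, a hexaploid, here cv Chinese Spring) across its whole span, from the end of the heat to the last sampling. The 4 RNA-seq libraries of heated plants taken at 4 days after treatment (DAT) were compared with the 4 taken from heated plants at 0 DAT, and these 8 libraries were chosen by their labels out of 24. All plants descended from 1 selfed individual and reached the boot stage in days of 16 h light at 18 °C and nights of 8 h at 16 °C. Heated plants then spent 5 days at 37 °C with ample water and went back to the former regime, whereas control plants never left it. Each sample was a pool of RNA from leaves of 18 plants, so differences between single plants cannot be seen. The study describes these pools for its small RNA libraries, and the RNA-seq labels carry the same groups and numbers, from which it was taken that both kinds of library share their pools. Control plants of 0 and 4 DAT (4 libraries each) and heated plants of 1 DAT (4 libraries) are given beside the main comparison.

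A leaf kept above its growth temperature loses carbon fixation capacity, produces reactive oxygen in its chloroplasts and spends more on chaperones, the proteins that keep other proteins folded. On return to mild temperatures, photosynthesis, assimilation of sulfur and nitrogen and hormone signalling are rebuilt, while stress proteins decline. Several plant genes with roles in these processes are cut by microRNAs, short RNAs that pair with a transcript through a seed (bases 2 to 8) and the bases beyond it.

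Names were available for transcripts in the study's table of microRNA targets, so the named genes are a selected set. For families that carry the comparison, the microRNA of that table and the site it pairs with are printed 5′ to 3′. Capitals mark the seed in the microRNA and the bases opposite it in the site. Paired means A with T or G with C as printed, so wobbles of G with T were not counted as paired. The first pair belongs to ATP sulfurylase, whose 3 copies on chromosomes 5A, 5B and 5D had the same site, with 18 of 20 bases paired and 6 of the 7 seed bases. The remaining 2 bases, 1 of them in the seed, were wobbles.
miR395-18-3p: tGAAGTGTttgggggaactc
ATP sulfurylase site: gagttcctccaaGCACTTCa
The site of copper-zinc superoxide dismutase was the same on 2A and 2B, with 16 of 21 bases paired and 1 wobble.
miR398-1.2-3p: tTGTGTTCtcaggtcacccct
superoxide dismutase site: cttggtgacctggGAACACTa
All 4 tested homeobox leucine-zipper transcripts shared the next site, with 18 of 21 bases paired and 2 wobbles.
miR166-4.1-3p: tTCGGACCaggcttcattccc
homeobox leucine-zipper site: tgggatgaagcctGGTCCGGa
Of the 6 TIR1 auxin receptor transcripts, 5 shared a site with all 7 seed bases paired, and the copy on 5A differed from it at 3 letters.
miR393-2-5p: tCCAAAGGgatcgcattgatc
TIR1 site: agacaatgcgatcCCTTTGGa
TIR1 site of TraesCS5A01G281100.1: aggcaatgcgctcGCTTTGGa
The nuclear factor Y subunit that rose had a site with 17 of 21 bases and all 7 seed bases paired.
miR169l-1: tAGCCAAGaatgacttgcctg
nuclear factor Y site: ctggcaaatcatcCTTGGCTt

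Total counts per library lay between 7602093 and 16112270 at 0 DAT and between 5403461 and 11426455 at 4 DAT. The TMM scaling factor, which corrects a library for its most abundant transcripts, was 1.35 ± 0.128 at 0 DAT and 0.938 ± 0.156 at 4 DAT (SD, n = 4; exact permutation p = 0.0286, two-sided, the smallest that 4 against 4 libraries allow). The 3 most abundant transcripts held 14.2 ± 3.94% of the counts at 0 DAT and 19.1 ± 2.13% at 4 DAT (exact permutation p = 0.0286; 0.0571 to 0.0857 without replicate 1 of 0 DAT or any 1 library of 4 DAT), and the number of transcripts with a count fell from 74700 ± 3630 to 66200 ± 4030 (exact permutation p = 0.0286). Libraries 2 and 4 of 4 DAT stood apart. TraesCS1A01G000100.1 took 4.57% and 3.67% of their counts, against 0.692% and 0.0244% in replicates 1 and 3 and at most 0.0393% at 0 DAT. The 100 transcripts whose levels followed it most closely over the 24 libraries (r of at least 0.95) held 14.4% and 11.8% of the counts there, and the main counts below are also given without these 2 libraries. The feature was not particular to them. TraesCS1A01G000100.1 took 6.95% of the counts in heated replicate 3 of 1 DAT and 4.34% in control replicate 2 of 4 DAT. The same 100 transcripts held 22.1% and 13.7% of the counts in these side groups' libraries. Of the leaf mesophyll markers, 3 of 4 were tested and 1, geranylgeranyl reductase, was called higher. Their summed level was 1150 to 2750 CPM (counts scaled to a common library total with the TMM factors) at 0 DAT and 3770 to 7530 CPM at 4 DAT. Most of that sum came from the small subunit of Rubisco (967 to 2400 and 3190 to 6720 CPM), which was not called, whereas the marker PsbP had 14.7 ± 2.84 and 12 ± 1.85 CPM (SD, n = 4). The fourth, a carbonic anhydrase transcript, was at 0.063 CPM or less in all 8 libraries. The pollen marker was at 0 throughout. A MADS-box transcript, taken as a floral marker although its description names only the family, was at 0.126 CPM or less. Caleosin, taken as a marker of seed oil bodies, was at 0.567 to 5.36 CPM at 0 DAT and 0 to 0.838 CPM at 4 DAT. Whether cell makeup differed between the days, and what part it had in the results, was not tested. Fewer cells of a type cannot be told apart from less RNA per cell in whole leaves.

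Much of the leaf transcriptome differed between the end of heat and the fourth day of recovery. By edgeR's quasi-likelihood test, with p-values adjusted by Benjamini-Hochberg over all 54517 transcripts tested and a threshold of 0.05, 11220 transcripts (20.6%) were called, of which 6207 were higher (11.4%) and 5013 lower (9.2%) at 4 DAT. The 4 libraries of each day did not overlap for 13728 transcripts (25.2%). The change of called transcripts was at least 2-fold for 6280 (11.5%) and at least 4-fold for 2007. For the risen transcripts the median difference was 1.05 on the log2 scale, and for the fallen ones its size was 1.15. Together the risen transcripts held 21.2% of the counts at 0 DAT and 39.8% at 4 DAT, and the fallen ones 12.7% and 3.82%. Both sets were picked by their change in these libraries, so the direction of these shares was fixed by the choice. Of the 100 transcripts following TraesCS1A01G000100.1, 72 were among the risen. These 100 held 2.22%, 14.4%, 0.178% and 11.8% of the counts in replicates 1 to 4 of 4 DAT. The share called grew with level, from 12% of transcripts between 1 and 5 CPM to 60.4% of those above 100 CPM. In control plants over the same days 5 transcripts were called (0.00917%; 2 higher, 0.00367%, and 3 lower, 0.0055%), and 0 to 2 with any 1 control library left out, with 3783 at an unadjusted p under 0.05, against 18056 in heated plants. The change in heated plants differed from that in control plants for 5582 transcripts (10.2%; 3277 higher, 6.01%, and 2305 lower, 4.23%). The named transcripts for which this held are all listed among the flagged results below. For every other named transcript the difference from control plants was not called, also where this is not repeated.

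**Figure D1:**
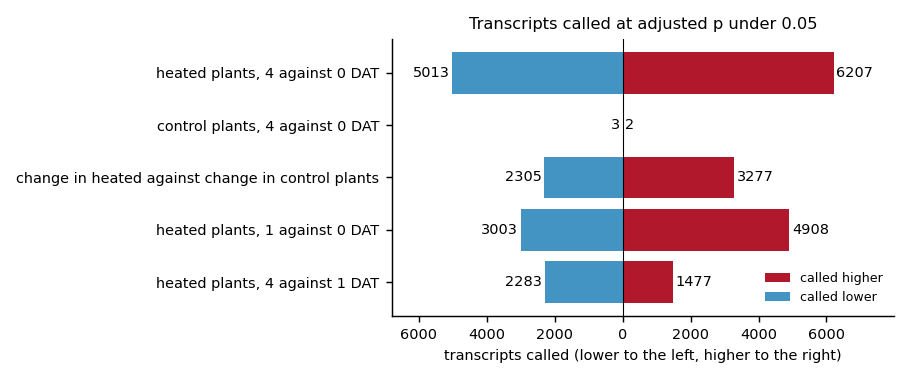
Number of transcripts called higher and lower (edgeR adjusted p under 0.05, of 54517 tested) in each comparison. The heated plants from 0 to 4 DAT had 6207 higher and 5013 lower calls, while the control plants over the same days had 5 in all.

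Leaving out libraries 2 and 4 of 4 DAT, an alternative chosen after seeing the data, left 6566 calls in heated plants and 3452 for the difference from control plants. The split by direction depended on the scaling. With total counts alone the median transcript moved by -0.544 on the log2 scale, and 1788 transcripts were called higher and 11785 lower (13.2% higher among calls, against 55.3% with TMM factors), so directions below are relative to the bulk of transcripts.

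Calls were spread evenly over the 3 subgenomes of hexaploid wheat, with 20.5% of the tested transcripts called on A, 20.3% on B and 20.7% on D. Among transcripts on unplaced scaffolds (U) 25.6% were called, 140 higher and 61 lower, and without libraries 2 and 4 of 4 DAT 65 and 28 of 883. Of the 100 followers of TraesCS1A01G000100.1, 40 lie on these scaffolds. The most abundant called transcripts outside that set were 3 without an annotation, on 4A, 4B and 4D. TraesCS4B01G140300.1 rose from 2190 ± 468 to 5820 ± 669 CPM (SD, n = 4; log2 difference 1.41, adjusted p = 2.1e-05), and TraesCS4A01G177500.1 and TraesCS4D01G135000.9 rose by 1.51 and 1.38. Whether these 3 are copies of 1 gene was not tested. Near-identical copies on the subgenomes share reads, so a division of counts between such copies is uncertain.

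Of the 8 tested transcripts of sulfur metabolism 4 were higher and none lower (50% called). Of these 4, 3 were the copies of ATP sulfurylase on 5A, 5B and 5D, which do not count as independent members. Here and for every list below, the share of tested members called stands beside 20.6% over all transcripts (11.4% higher and 9.2% lower), and a share near it says nothing particular of the list. ATP sulfurylase, which activates sulfate in the first step towards cysteine, was called higher in all 3 copies, and the median of its family was 1.70, against -0.0255 over all transcripts tested. Replicates are listed in the order 1 to 4 here and below. The copy on 5B, TraesCS5B01G387300.1, had 5.15, 8.7, 5.01 and 5.6 CPM at 0 DAT and 17.4, 9.5, 15.1 and 67.7 CPM at 4 DAT. All 4 libraries of 4 DAT lay above those of 0 DAT, replicate 2 only just and replicate 4 far above the rest (log2 difference 2.15, SE 0.43, adjusted p = 0.0011). TraesCS5D01G392300.1 went from 6.85, 7.25, 6.83 and 3.64 CPM to 14.9, 7.02, 14.3 and 44.9 CPM (1.70, SE 0.36, adjusted p = 0.0019). TraesCS5A01G382900.1 went from 8.35, 12.3, 7.38 and 6.39 CPM to 18.6, 9.29, 15.9 and 64.7 CPM (1.64, SE 0.40, adjusted p = 0.0053). In both of these, replicate 2 of 4 DAT lay within the range of 0 DAT and replicate 4 was again the highest. The level had already been reached at 1 DAT, where the means were 27.4, 20.6 and 25.6 CPM for 5B, 5D and 5A and the differences from 0 DAT 2.15, 1.73 and 1.56. Control plants had 24.7, 18.7 and 24.6 CPM at 0 DAT and 19.5, 14.9 and 18.6 CPM at 4 DAT. The change exceeded that in control plants by 2.49, 2.02 and 2.04 (adjusted p = 0.0088, 0.012 and 0.021), but with the pool as a block in the model these were no longer called (adjusted p = 0.051, 0.063 and 0.096), and the last was lost also without replicate 4 of 0 DAT (adjusted p = 0.051). The size of the rise rested on replicate 4 of 4 DAT, without which the differences between 4 and 0 DAT were 1.21, 0.99 and 0.78 for 5B, 5D and 5A (adjusted p = 0.0035, 0.0085 and 0.04). Without libraries 2 and 4 of 4 DAT they were 1.42, 1.26 and 1.02 (adjusted p = 0.0023, 0.0017 and 0.014). The rise itself was not called for any copy with the pool as a block in the 8 heated libraries of 0 and 4 DAT alone (adjusted p = 0.077, 0.15 and 0.18), and for 5A it was not called in these 8 libraries without the block either (adjusted p = 0.063).

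**Figure D2:**
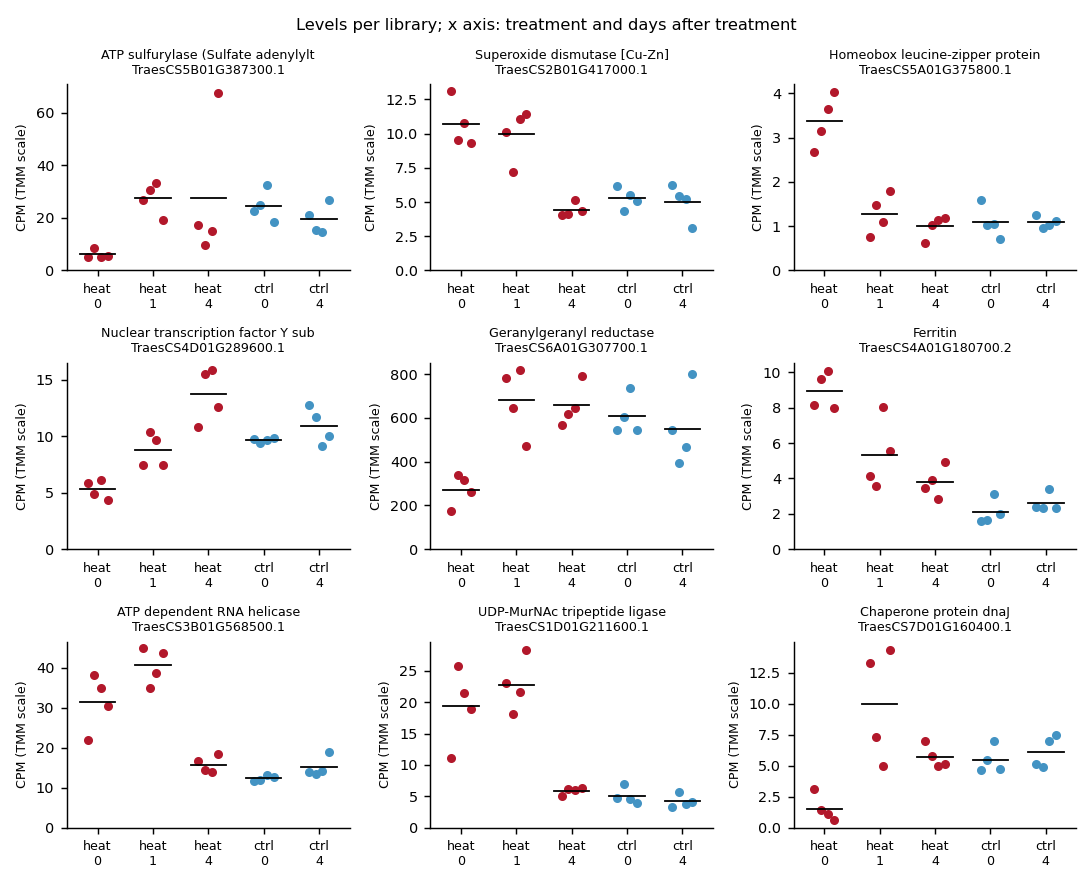
Levels of selected transcripts in CPM in each library by treatment and day (points, with the mean of 4 as a line). In heated plants the ATP sulfurylase copy on 5B lay at 5.01 to 8.7 CPM at 0 DAT and 9.5 to 67.7 CPM at 4 DAT, beside control plants on the same days.

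Of 8 tested genes of photosynthesis and photorespiration 3 were higher and none lower (37.5% called, median 0.69), and with total counts alone 1 was higher and 1 lower (median 0.16). The called members were geranylgeranyl reductase and both fibrillins, whereas the tested transcripts of Rubisco, the cytochrome b6-f complex and photosystem II were not called. Geranylgeranyl reductase, which makes the phytyl chain of chlorophyll and tocopherol, had 172, 337, 314 and 260 CPM at 0 DAT and 569, 617, 647 and 793 CPM at 4 DAT (TraesCS6A01G307700.1). Every library of 4 DAT exceeded every library of 0 DAT, the lowest being replicate 1 on both days (log2 difference 1.28, SE 0.27, adjusted p = 0.002). Its excess over the change in control plants was 1.42 (adjusted p = 0.021, 0.059 with the pool as a block and 0.052 without control replicate 3 of 0 DAT). Both fibrillins, proteins of the lipid globules of chloroplasts, rose, from 24.9 ± 2.73 to 42.2 ± 3.95 CPM for TraesCS3A01G024200.1 (0.76, adjusted p = 0.00041) and from 26.7 ± 1.29 to 41 ± 4.51 CPM for TraesCS3D01G022000.1 (0.62, adjusted p = 0.013). Neither fibrillin was called with total counts alone (0.24 and 0.08), and the 3D copy was not without libraries 2 and 4 of 4 DAT (0.57, adjusted p = 0.10).

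The small subunit of Rubisco, the enzyme that fixes carbon dioxide, had 967, 2400, 2180 and 1800 CPM at 0 DAT and 3190, 3680, 3430 and 6720 CPM at 4 DAT (TraesCS5B01G162800.1). The groups did not overlap, but the difference of 1.21 (SE 0.45) missed the threshold (adjusted p = 0.06). It passed in the 8 heated libraries alone (adjusted p = 0.034), in DESeq2 (adjusted p = 0.034) and in 4 other alternatives. Without libraries 2 and 4 of 4 DAT the difference was 0.87 (adjusted p = 0.33), and without replicate 4 of 4 DAT 0.91 (adjusted p = 0.19). With the pool as a block it was not called (adjusted p = 0.11), nor was its difference from the change in control plants (adjusted p = 0.2). Control plants had 4970 ± 1500 CPM at 0 DAT and 4630 ± 3040 CPM at 4 DAT. A subunit of the cytochrome b6-f complex, which passes electrons between the photosystems, had 11.3 to 14 CPM at 0 DAT and 21.1, 41.9, 13 and 47 CPM at 4 DAT (TraesCSU01G269500.1; 1.25, adjusted p = 0.061). Its highest libraries were replicates 2 and 4, those with high TraesCS1A01G000100.1. Without these 2 libraries of 4 DAT the difference was 0.43 (adjusted p = 0.67), and without replicate 4 alone 0.96 (adjusted p = 0.19). Without replicate 3 of 4 DAT the transcript was called (1.51, adjusted p = 0.028). A PsbP protein of photosystem II had 14.7 ± 2.84 and 12 ± 1.85 CPM (TraesCS5A01G109600.1; -0.30, adjusted p = 0.28), and with total counts alone it was the member called lower (-0.82, adjusted p = 0.00052). The photorespiratory enzymes glyoxylate reductase (TraesCS2A01G035000.1; -0.54, adjusted p = 0.45) and 2-hydroxy-acid oxidase (TraesCS5A01G266500.2; -0.84, adjusted p = 0.29) were not called.

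Transcripts of a pair of translocase subunits and of 1 protein of chloroplast movement, named one by one and not as a list, were called higher. TatC, part of the channel that carries folded proteins across the thylakoid membrane, had 20.1, 25.2, 28.4 and 22.5 CPM at 0 DAT and 40, 40.5, 42.6 and 43.1 CPM at 4 DAT (TraesCS3B01G224200.1). The groups were well apart (0.79, SE 0.16, adjusted p = 0.0011), and the change exceeded that in control plants by 0.91 (adjusted p = 0.011). The level at 1 DAT, 62.4 ± 10.6 CPM, was higher than on both other days (1 against 0 DAT 1.38, adjusted p = 6.6e-06; 4 against 1 DAT -0.59, adjusted p = 0.026). A SecY translocase subunit rose from 17.3 ± 3.36 to 34.8 ± 9.77 CPM (TraesCS5B01G157500.1; 1.00, adjusted p = 0.003), and PLASTID MOVEMENT IMPAIRED 1, which in Arabidopsis is needed for chloroplasts to move in response to light, from 36.8 ± 1.83 to 67.8 ± 7.98 CPM (TraesCS5A01G355000.1; 0.88, adjusted p = 7.5e-05). The latter exceeded its change in control plants by 0.67 (adjusted p = 0.025), a call lost on leaving out any of 7 of the 16 libraries (adjusted p up to 0.06). With total counts alone the differences of TatC, SecY and PLASTID MOVEMENT IMPAIRED 1 were 0.27, 0.44 and 0.35 and none was called, and SecY was not called without libraries 2 and 4 of 4 DAT (adjusted p = 0.075).

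On the list of plastid and mitochondrial gene expression, which holds TatC and SecY, 2 of 25 tested members were higher, 5 were lower and 18 were not called (28% called, median -0.30). Without libraries 2 and 4 of 4 DAT 1 was higher and 1 lower of 32. Outside this list, the ligase named after the bacterial wall enzyme MurE, whose plant relative in Arabidopsis acts with the chloroplast RNA polymerase, had 11.1, 25.8, 21.5 and 18.9 CPM at 0 DAT and 5.13, 6.19, 6.07 and 6.3 CPM at 4 DAT (TraesCS1D01G211600.1). All libraries of 4 DAT lay close together and below those of 0 DAT (-1.71, SE 0.30, adjusted p = 0.00036), and the difference from the change in control plants was -1.46 (adjusted p = 0.033), lost on leaving out any of 10 of the 16 libraries of heated and control plants (adjusted p up to 0.082). This fall came late, since the mean was still 22.8 ± 4.27 CPM at 1 DAT (4 against 1 DAT -1.95, adjusted p = 0.00058). Mitochondrial transcription termination factors (mTERF), which bind organelle nucleic acids, had 2 of 9 tested members lower and none higher (22.2% called). The study lists mTERF-like transcripts as targets of miR9662 and of another microRNA. Which microRNA pairs with each member of this list was not checked here. TraesCS1B01G325200.1 fell from 2.7 ± 0.505 to 0.825 ± 0.362 CPM (-1.66, adjusted p = 0.004) and TraesCS7B01G149800.1 from 1.36 ± 0.326 to 0.277 ± 0.167 CPM (-2.28, adjusted p = 0.013). Neither was called without libraries 2 and 4 of 4 DAT (adjusted p = 0.077 and 0.061).

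Enzymes of redox balance went both ways, with 3 of 13 tested members higher and 2 lower (38.5% called, median -0.49; with total counts alone 0 higher and 4 lower). Copper-zinc superoxide dismutase, which turns superoxide into hydrogen peroxide, had 13.1, 9.51, 10.8 and 9.33 CPM at 0 DAT and 4.08, 4.13, 5.18 and 4.33 CPM at 4 DAT for the copy on 2B (TraesCS2B01G417000.1). The groups were far apart (-1.26, SE 0.25, adjusted p = 0.001), as was the change from that in control plants (-1.18, adjusted p = 0.036), although the latter call was lost on leaving out any of 11 of the 16 libraries (adjusted p up to 0.083). At 1 DAT the mean was 9.97 ± 1.92 CPM, close to that of 0 DAT, and the decline came between 1 and 4 DAT (-1.16, adjusted p = 0.0076). Its copy on 2A had 6.24, 6.62, 5.28 and 5.11 CPM at 0 DAT and 3.04, 3.51, 4.78 and 3.74 CPM at 4 DAT (TraesCS2A01G399000.1). These groups did not overlap either, but the difference of -0.62 was not called (adjusted p = 0.08; 0.04 in the 12 heated libraries alone and 0.017 with total counts alone). Both copies carry the miR398 site printed above.

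Among the risen redox genes, a glutaredoxin, which reduces disulfides with glutathione, went from 60.9, 62.4, 66.2 and 61.2 CPM to 105, 104, 134 and 89.9 CPM (TraesCS3A01G158800.1; 0.79, SE 0.14, adjusted p = 0.00041). All 4 libraries rose past a tight group at 0 DAT, and the change exceeded that in control plants by 0.74 (adjusted p = 0.021, but 0.055 without control replicate 1 of 0 DAT). The rise came after 1 DAT (4 against 1 DAT 0.58, adjusted p = 0.015). A chloroplast thioredoxin-like protein rose from 25.5 ± 1.7 to 37.8 ± 2.61 CPM (TraesCS4A01G105500.1; 0.57, adjusted p = 0.0066). With total counts alone neither was called (0.30 and 0.06). The iron store ferritin fell from 8.14, 9.64, 10.1 and 7.96 CPM to 3.45, 3.92, 2.83 and 4.92 CPM (TraesCS4A01G180700.2; -1.26, SE 0.25, adjusted p = 0.0012). No library of 4 DAT reached those of 0 DAT, control plants had 2.09 ± 0.712 and 2.6 ± 0.523 CPM, and the change differed from theirs by -1.57 (adjusted p = 0.0081). Ferritin was the 1 fall among 6 tested genes of metal storage and transport (33.3% called), and the 1 rise, of cadmium-induced protein AS8 (TraesCS2A01G253800.1; 0.70, adjusted p = 0.014), was lost without replicate 1 of 0 DAT (adjusted p = 0.053). An aldo/keto reductase rose from 13.8 ± 5.21 to 37.1 ± 10.3 CPM (TraesCS2A01G254200.1; 1.43, adjusted p = 0.012, but 0.087 without libraries 2 and 4 of 4 DAT).

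The 5 tested chaperones and quality control proteins gave 2 rises and no fall (40% called). A dnaJ protein, a partner of the chaperone Hsp70, had 3.08, 1.39, 1.09 and 0.59 CPM at 0 DAT and 7.01, 5.78, 4.94 and 5.12 CPM at 4 DAT (TraesCS7D01G160400.1; 1.81, SE 0.45, adjusted p = 0.007). All libraries of 4 DAT were higher, and the mean was higher still at 1 DAT, 9.97 ± 4.57 CPM (1 against 0 DAT 2.62, adjusted p = 0.00044). Tripeptidyl-peptidase 2, which trims peptides downstream of the proteasome, went from 26.2 ± 6.12 to 61.1 ± 24.4 CPM (TraesCS6B01G278200.1; 1.22, adjusted p = 0.0031), with 97.6 CPM in replicate 4 of 4 DAT and 46.6 to 51.8 CPM in the others. It was not called without libraries 2 and 4 of 4 DAT (0.88, adjusted p = 0.063), and dnaJ was not with total counts alone (1.27, adjusted p = 0.10). The difference from the change in control plants was not called for dnaJ (adjusted p = 0.099) or tripeptidyl-peptidase 2 (adjusted p = 0.051).

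Of the genes for ribosome assembly and RNA helicases, 1 of 10 rose and 3 fell (40% called; 1 and 1 without libraries 2 and 4 of 4 DAT). Nucleolar GTP-binding protein 1, which acts in assembly of the large ribosomal subunit, rose from 6.28, 7.81, 8.2 and 6.19 CPM to 11, 12, 14.4 and 13.4 CPM (TraesCS6B01G072400.1; 0.84, SE 0.14, adjusted p = 0.00028; 0.32, not called, with total counts alone). Its groups were apart in all replicates, with a mean of 16.5 ± 1.57 CPM at 1 DAT. An ATP-dependent RNA helicase had 21.8, 38.1, 34.9 and 30.4 CPM at 0 DAT and 16.6, 14.4, 13.8 and 18.3 CPM at 4 DAT (TraesCS3B01G568500.1; -0.99, SE 0.16, adjusted p = 0.00017). It was highest at 1 DAT, with 40.6 ± 4.54 CPM, and fell after that day (-1.36, adjusted p = 5.1e-05). Its change differed from that in control plants by -1.28 (adjusted p = 0.0011). U3 small nucleolar RNA-associated protein 25, which helps to process ribosomal RNA, fell from 10.3 ± 1.64 to 5.92 ± 1.67 CPM (TraesCS6B01G236700.1; -0.78, adjusted p = 0.012, but 0.19 without libraries 2 and 4 of 4 DAT). Of 12 tested genes of the translation machinery 1 was called (8.33%), the alpha subunit of initiation factor 2, at 8.72 ± 0.284 and 5.96 ± 0.576 CPM (TraesCS4B01G190900.1; -0.54, adjusted p = 0.014, but 0.15 without those libraries).

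Amino acid and nitrogen metabolism had 2 members higher and 2 lower of 12 tested (33.3% called). A branched-chain amino acid aminotransferase, an enzyme that makes or breaks down leucine, isoleucine and valine, fell from 12.1 ± 2.39 to 7.05 ± 1.8 CPM (TraesCS6A01G172400.1; -0.80, adjusted p = 0.0097). A second one, TraesCS6D01G161500.1, rose from 2.18 ± 0.525 to 3.92 ± 1.09 CPM (0.83, adjusted p = 0.022), with overlapping groups, and was lost on leaving out replicate 4 of 0 DAT (adjusted p = 0.083) or replicate 3 or 4 of 4 DAT (adjusted p = 0.052 and 0.085). Both differed from their change in control plants, by -1.03 and 1.12 (adjusted p = 0.034 and 0.045, and 0.067 and 0.094 with the pool as a block), and these calls were lost on leaving out any of 9 and any of 12 of the 16 libraries (adjusted p up to 0.09 and 0.11). An aminotransferase without further description went from 92.5, 93.1, 96.1 and 89.8 CPM to 46.6, 68.3, 70.6 and 51.6 CPM (TraesCS1B01G102700.1; -0.65, adjusted p = 0.022). All 4 libraries fell below a tight group, but their spread was wide and the call was lost without replicate 1 or 4 of 4 DAT (adjusted p = 0.081 and 0.067). Outside the amino acid list, a hydrolase of the valine breakdown pathway fell from 8.4 ± 0.81 to 3.91 ± 0.834 CPM (TraesCS3B01G325800.1; -1.12, adjusted p = 0.0031), beside -0.76 in control plants. Its difference from their change was not called (adjusted p = 0.6). Phosphoribosylamine-glycine ligase of purine synthesis fell from 8.24 ± 1.25 to 4.2 ± 0.924 CPM (TraesCS4B01G314600.1; -0.97, adjusted p = 0.0057, but 0.056 without libraries 2 and 4 of 4 DAT).

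Among 4 tested sugar genes 2 were higher and 1 lower (75% called), and none was called with the pool as a block. Enolase of glycolysis had 76.6 ± 7.67 and 108 ± 21.5 CPM (TraesCS5D01G019800.1; 0.49, adjusted p = 0.032, and 0.059 with the block). A phosphotransferase had 7.81 ± 1.53 and 11.2 ± 0.816 CPM (TraesCS1B01G366400.1; 0.53, adjusted p = 0.045, and 0.068). Fructokinase-2, which phosphorylates fructose, had 0.932, 2.96, 1.64 and 2.36 CPM at 0 DAT and 1.05, 0.826, 0.648 and 0.394 CPM at 4 DAT (TraesCS3B01G397500.1; -1.39, adjusted p = 0.026, and 0.074). Its groups overlapped, and it peaked in between, at 5.35 ± 2.53 CPM at 1 DAT (4 against 1 DAT -2.84, adjusted p = 0.00057). Leaving out 1 heated library ended each of these 3 calls. For enolase this held for each library except replicate 2 of 0 DAT and replicate 4 of 4 DAT (adjusted p = 0.052 to 0.10), for the phosphotransferase for each except replicate 2 of 0 DAT (0.051 to 0.15), and for fructokinase for replicates 2 and 4 of 0 DAT and 3 and 4 of 4 DAT (0.063 to 0.10).

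Of the described transcripts with at least 5 CPM and no overlap between days, the deepest falls were those of flavonoid 3′-hydroxylase, a terpene cyclase and a chitinase. Flavonoid 3′-hydroxylase, a cytochrome P450 of the flavonoid pathway, had 8.43, 27.2, 25 and 15.6 CPM at 0 DAT and 0.838, 0.413, 0.243 and 4.92 CPM at 4 DAT (TraesCS1B01G476400.1; -3.76, SE 0.92, adjusted p = 0.006). The groups were apart, with replicate 4 the highest at 4 DAT. A terpene cyclase, which folds the ring skeleton of sterols and triterpenes, had 35.7, 17.8, 15.2 and 35.4 CPM at 0 DAT and 2.3, 4.95, 3.56 and 6.69 CPM at 4 DAT (TraesCS6B01G139500.1; -2.62, SE 0.57, adjusted p = 0.0022). Here too no library of 4 DAT came near those of 0 DAT. A chitinase, which attacks fungal walls, had 65.2, 31.5, 81.5 and 32.5 CPM at 0 DAT and 3.98, 8.46, 30.6 and 6.1 CPM at 4 DAT (TraesCS2B01G369000.1; -2.06, SE 0.51, adjusted p = 0.0065). Replicate 3 was high on both days and at 4 DAT almost reached the lowest of 0 DAT, and without libraries 2 and 4 of 4 DAT the chitinase was not called (-1.57, adjusted p = 0.12). Without replicate 3 of 4 DAT its difference was -3.12 (adjusted p = 0.00015). For these 3 genes the difference from the change in control plants was not called (adjusted p = 0.10, 0.057 and 0.097), except for the chitinase without replicate 3 of 4 DAT (-2.95, adjusted p = 0.004). Control plants had 7.29 and 4.83 CPM of the flavonoid hydroxylase at 0 and 4 DAT, 4.58 and 3.87 CPM of the terpene cyclase, and 15.9 and 14.2 CPM of the chitinase.

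A second cytochrome P450, of a family whose role the text does not give, moved the other way, from 0.365, 0.315, 0.0911 and 0.491 CPM to 1.57, 4.54, 1.05 and 5.51 CPM (TraesCS4A01G308600.1; 3.19, SE 0.55, adjusted p = 0.00028). Replicates 2 and 4 were the highest at 4 DAT, all 4 exceeded 0 DAT, and the change exceeded that in control plants by 3.66 (adjusted p = 0.0021). Without replicates 2 and 4 of 4 DAT the difference between the days was 2.01 (adjusted p = 0.018). Polyphenol oxidase, a copper enzyme that oxidises phenolics, fell from 4.38, 10, 6.2 and 6.58 CPM to 1.05, 2.06, 0.567 and 4.13 CPM (TraesCS3B01G355900.1; -1.88, adjusted p = 0.015). Replicate 4 of 4 DAT lay just under the lowest library of 0 DAT, and the call was lost without replicate 2 of 0 DAT or replicate 1 or 3 of 4 DAT (adjusted p = 0.057, 0.057 and 0.055), while without replicates 2 and 4 of 4 DAT the difference was -3.06 (adjusted p = 0.0042). Of the defence list 2 of 12 tested members fell and none rose (16.7% called), the chitinase and an NBS-LRR protein, a class of immune receptors, with 2.6 ± 0.394 and 1.16 ± 0.345 CPM (TraesCS3B01G554500.1; -1.18, adjusted p = 0.023). The latter was lost without replicate 4 of 0 DAT (adjusted p = 0.062) or replicate 3 of 4 DAT (adjusted p = 0.083). A glucanase of cell walls fell from 2.47 ± 0.445 to 0.596 ± 0.31 CPM (TraesCS5A01G199400.1; -1.96, adjusted p = 0.0062, but 0.094 without libraries 2 and 4 of 4 DAT), beside -1.01 in control plants. Cytochrome P450 genes and oxygenases had 1 member higher and 1 lower of 8 (25% called), the genes described here, and cell wall enzymes 1 lower of 5 (20%). Lipid genes, a list that includes the terpene cyclase, had 2 of 10 members lower and none higher (20%).

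**Figure D3:**
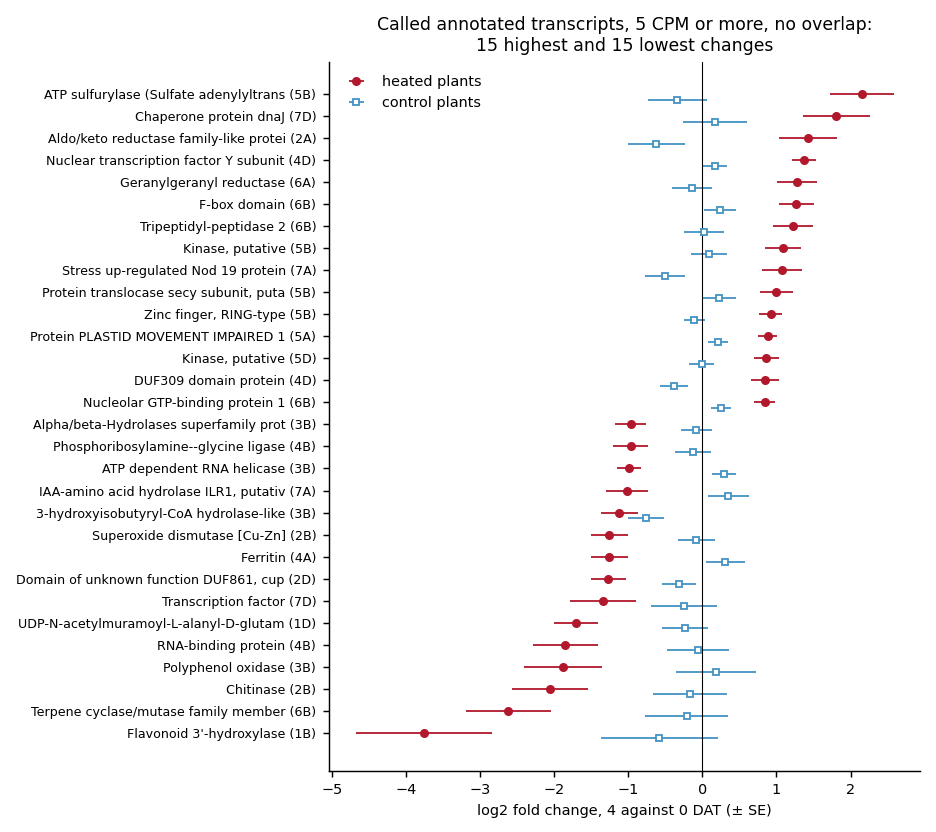
Log2 difference between 4 and 0 DAT (± SE) in heated and in control plants for the 15 highest and the 15 lowest changes in heated plants among annotated transcripts that were called, had at least 5 CPM and did not overlap between the days. They ran from -3.76 for flavonoid 3′-hydroxylase to 2.15 for ATP sulfurylase on 5B in heated plants, and none was called in control plants.

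Families of regulators of transcription and hormone response had from 0 to 2 members called. The nuclear factor Y subunit on 4D, part of a factor that binds CCAAT boxes and a miR169 target, had 5.83, 4.91, 6.1 and 4.32 CPM at 0 DAT and 10.8, 15.5, 15.9 and 12.6 CPM at 4 DAT (TraesCS4D01G289600.1). Every library of 4 DAT was far above 0 DAT (1.37, SE 0.16, adjusted p = 5.1e-06), and the excess over control plants was 1.19 (adjusted p = 0.0017). It rose on both legs, by 0.71 to 1 DAT (adjusted p = 0.0045) and by 0.65 after it (adjusted p = 0.016). This was the 1 member called of 9 tested (11.1%), whose median was 0.22 (-0.31 with total counts alone).

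The homeobox leucine-zipper family, which sets leaf polarity and vascular pattern, had 1 of 4 members called (25%). TraesCS5A01G375800.1 fell from 2.67, 3.15, 3.64 and 4.03 CPM to 0.628, 1.03, 1.13 and 1.18 CPM (-1.76, SE 0.30, adjusted p = 0.00025). The groups were clearly apart, the fall was in place by 1 DAT (-1.37, adjusted p = 0.0024), and the change differed from that in control plants by -1.74 (adjusted p = 0.01). The other members, which carry the same printed miR166 site, had -0.62 (TraesCS5B01G378000.1, adjusted p = 0.19), -0.38 (TraesCS1B01G173900.1, adjusted p = 0.38) and 0.18 (TraesCS1A01G157500.1, adjusted p = 0.68). With total counts alone the first and second of these were also called lower (-1.12 and -0.93, adjusted p = 0.033 and 0.0088).

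Of the 6 TIR1 auxin receptors 2 were higher and none lower (33.3% called, median 0.33; with total counts alone -0.19, 0 higher and 1 lower). TraesCS1B01G119100.1 rose from 2.96, 2.58, 3.1 and 2.95 CPM to 4.92, 5.78, 4.29 and 5.31 CPM (0.80, SE 0.19, adjusted p = 0.004, but 0.055 without libraries 2 and 4 of 4 DAT). TraesCS2A01G286200.1 rose from 5.23, 5.67, 4.46 and 4.91 CPM to 9.21, 6.19, 8.18 and 5.9 CPM (0.55, adjusted p = 0.014, but 0.068 without replicate 1 of 4 DAT). Both groups were apart, the second narrowly. TraesCS2B01G302900.1 had 6.68 to 8.2 CPM at 0 DAT and 4.33 to 5.57 CPM at 4 DAT without overlap (-0.51, adjusted p = 0.11). Its change was nonetheless called as different from that in control plants, where it was 0.55 (difference -1.06, adjusted p = 0.036, and 0.05 with the block), and this call was lost on leaving out any of 11 of the 16 libraries (adjusted p up to 0.091). The copies on 1A and 1D had 0.63 and 0.11 (adjusted p = 0.44 and 0.86). The copy on 5A, whose site differs at 3 letters, had 6.24 ± 0.842 and 5.99 ± 1.37 CPM (-0.06, adjusted p = 0.86). A hydrolase that frees auxin from amino acid conjugates, ILR1, fell from 13 ± 0.708 to 6.44 ± 1.28 CPM (TraesCS7A01G435700.1; -1.02, adjusted p = 0.012), and its change differed from that in control plants by -1.37 (adjusted p = 0.031, lost on leaving out any of 7 of the 16 libraries, up to 0.073).

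The 11 tested SPL factors, which time the passage from juvenile to adult growth under miR156, gave no call in either direction by edgeR or DESeq2 (adjusted p under 0.05; 1 at an unadjusted p under 0.05), and their log2 differences ran from -1.11 for TraesCS2D01G232800.1 (adjusted p = 0.40) to 0.92 for TraesCS3D01G425800.1 (adjusted p = 0.087). Their median was -0.01, and their levels were low, the highest being TraesCS6D01G098500.1 with 9.62 ± 0.709 and 9.2 ± 3.2 CPM. Without replicate 1 of 0 DAT TraesCS3D01G425800.1 was called higher (1.26, adjusted p = 0.035), and with total counts alone TraesCS6B01G138400.1 and TraesCS6D01G098500.1 were called lower (-0.90 and -0.62). None of 9 scarecrow and GRAS factors (median 0.11), 2 auxin response factors (-0.20), 4 calcium signalling genes (0.50) and 5 other transcription factors (-0.16) was called by edgeR or DESeq2, with 1 scarecrow or GRAS factor and none of the others at an unadjusted p under 0.05.

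In RNA silencing, with 1 of 5 tested members higher and 1 lower (40% called), SUPPRESSOR OF GENE SILENCING 3, which helps to make double-stranded RNA for trans-acting small RNAs, fell from 7.9, 10, 11.2 and 9.63 CPM to 5.03, 4.75, 5.34 and 6.3 CPM (TraesCS4D01G163100.1; -0.85, SE 0.15, adjusted p = 0.00044). The groups were apart and the change differed from that in control plants by -0.91 (adjusted p = 0.01). An Argonaute, the protein that holds small RNAs, went from 27.9 ± 1.39 to 39.9 ± 4.34 CPM (TraesCS6B01G466700.1; 0.51, adjusted p = 0.019), but with total counts alone its sign turned (-0.03, adjusted p = 0.92). Leaving out replicate 4 of 0 DAT or of 4 DAT also ended that call (adjusted p = 0.057 and 0.062). Of 7 genes of DNA replication, repair and chromatin 1 was called lower (14.3%), a DNA repair protein at 0.942 ± 0.187 and 0.348 ± 0.319 CPM (TraesCS2A01G208200.1; -1.51, adjusted p = 0.045), which was lost with the block (adjusted p = 0.071) and on leaving out any heated library but replicate 2 of 4 DAT (0.051 to 0.13).

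Of 20 tested F-box and ubiquitin genes 3 were higher and 2 lower (25% called), and of 30 kinases 4 and 2 (20% called; 3 and 0 with the pool as a block). Both shares lay near the 20.6% over all transcripts. An F-box protein, a substrate receptor of ubiquitin ligases, rose from 2.71, 2.71, 1.91 and 2.65 CPM to 4.71, 7.22, 5.34 and 7.28 CPM (TraesCS6B01G099000.1; 1.27, SE 0.23, adjusted p = 0.00044). A RING zinc finger protein rose from 24.5 ± 1.49 to 46.5 ± 6.6 CPM (TraesCS5B01G480100.1; 0.92, adjusted p = 0.00013). Both were apart from 0 DAT in all libraries and exceeded their change in control plants by 1.03 (adjusted p = 0.042 and 0.0027, and 0.092 and 0.016 with the block), the former lost on leaving out any of 12 of the 16 libraries (adjusted p up to 0.10). An F-box protein with leucine-rich repeats fell from 1.73 ± 0.45 to 0.379 ± 0.311 CPM (TraesCS6B01G262900.1; -2.09, adjusted p = 0.012, but 0.10 without libraries 2 and 4 of 4 DAT), beside -2.19 in control plants. Kinases TraesCS5D01G145100.1 and TraesCS5B01G146100.1 rose by 0.86 and 1.09 (adjusted p = 0.0013 and 0.0029), from 48.4 ± 9.14 to 88 ± 14.9 CPM and from 9.74 ± 3.64 to 20.8 ± 3.5 CPM. With total counts alone the RING protein and both kinases were not called (0.42, 0.34 and 0.56).

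**Figure D4:**
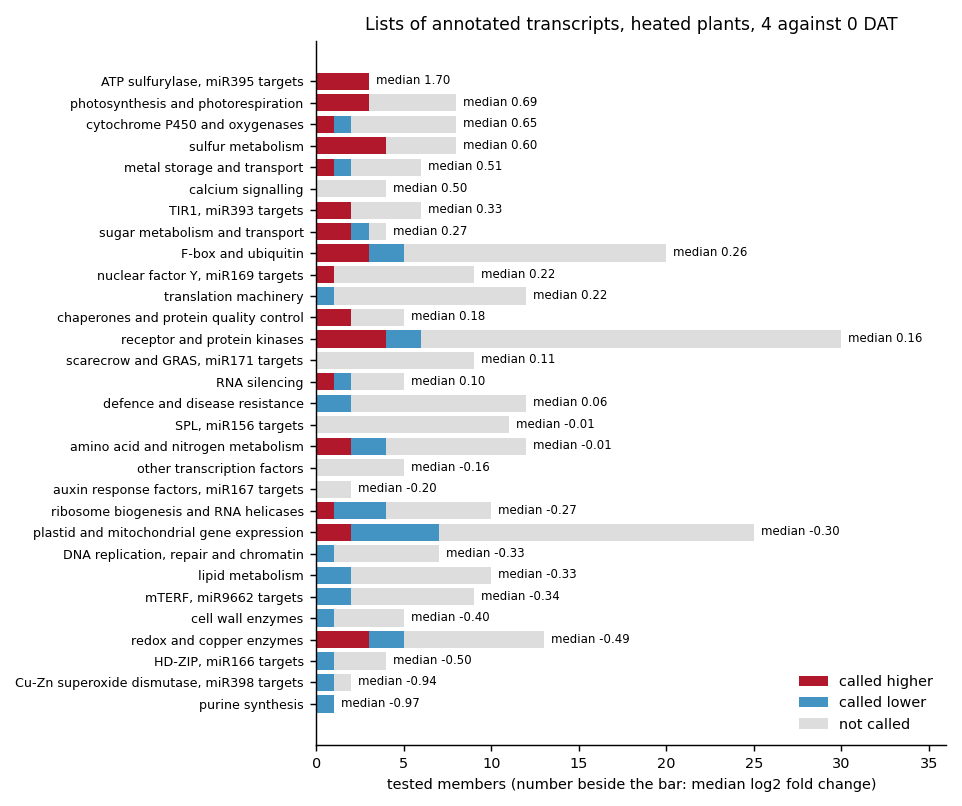
Number of members called higher and lower and of members tested for each gene list in heated plants, 4 against 0 DAT. All annotated transcripts together had 41 higher and 48 lower calls among 370 tested (24.1%, against 20.6% over all transcripts), and the ATP sulfurylase list had all 3 members higher.

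Outside the annotated set, the largest changes were near absence on one side. TraesCS4A01G068300.1 had 93.4, 35.3, 54.8 and 29.2 CPM at 0 DAT and TraesCS4A01G430200.1 had 9.4, 103, 143 and 13.6 CPM, and both had a count of 0 in all 4 libraries of 4 DAT. Against a floor of 3 counts over those 4 libraries they were at least 647-fold and 615-fold lower (adjusted p = 2e-07 and 0.00031). At 1 DAT they still had 1.11 ± 1.09 and 10.1 ± 8.79 CPM, and control plants had at most 0.18 CPM on average on either day. Among risen transcripts, TraesCS6A01G094100.1 had 0.162, 0, 0 and 0.0983 CPM at 0 DAT and 6.81, 14.4, 15.7 and 62.4 CPM at 4 DAT (adjusted p = 0.00026), beside 7.6 ± 3.61 and 5.19 ± 4.15 CPM in control plants. TraesCS5B01G462900.1 had 0, 0, 0 and 0.393 CPM and then 5.76, 8.26, 6.88 and 68.7 CPM (adjusted p = 0.00072). For both, replicate 4 of 4 DAT was far above the other libraries.

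In 29 of the 5791 genes with at least 2 tested transcripts, 1 transcript rose while another fell, and in 11 of them both had at least 5 CPM. In TraesCS3D01G337700 the first transcript rose from 2.71, 5.29, 4.46 and 2.85 CPM to 8.69, 12, 7.45 and 9.25 CPM (1.27, adjusted p = 0.00091). The second fell from 17.1, 19.8, 21.5 and 19.1 CPM to 7.85, 9.08, 9.15 and 5.9 CPM (-1.27, adjusted p = 3.3e-05). Neither pair of groups overlapped, so the share of the first within the gene grew. In TraesCS2D01G206200 transcript 1 rose from 6.08 ± 1.71 to 17.1 ± 0.601 CPM and transcript 2 fell from 23.3 ± 5.87 to 7.04 ± 2.42 CPM (1.47 and -1.71, adjusted p = 0.00047 and 0.0017). In TraesCS5D01G252400 transcript 2 rose from 13.4 ± 2.3 to 33.1 ± 7.11 CPM and transcript 3 fell from 95.4 ± 51.5 to 18.6 ± 11.5 CPM (1.31 and -2.34, adjusted p = 1.4e-05 and 0.01), the latter not called without libraries 2 and 4 of 4 DAT (adjusted p = 0.14). Summed over the transcripts of each gene, the differences were -0.40, -0.27 and -1.04. These isoforms share reads, and how the counts were divided between them rests on the estimation.

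**Figure D5:**
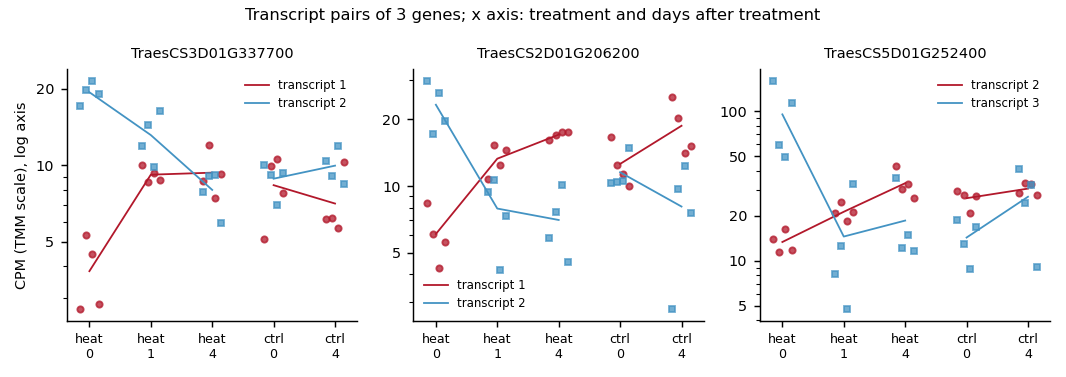
Levels in CPM (log axis) of both transcripts of 3 genes in each library by treatment and day, with lines through the group means. In TraesCS3D01G337700 the means of heated plants went from 3.83 to 9.34 CPM for transcript 1 and from 19.4 to 8 CPM for transcript 2.

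Each leg of recovery was compared too, with the heated libraries of 1 DAT shared between both. From 0 to 1 DAT 7911 transcripts were called (14.5%; 4908 higher, 9%, and 3003 lower, 5.51%), and from 1 to 4 DAT 3760 (6.9%; 1477 higher, 2.71%, and 2283 lower, 4.19%). The earlier leg had 5241 calls without replicate 1 of 0 DAT. The later leg had 2122 without replicate 2, 2327 without replicate 3 and 1471 without replicates 2 and 4 of 4 DAT. At 4 DAT itself 98 of 54517 transcripts (0.18%) differed between heated and control plants, 38 higher (0.0697%) and 60 lower (0.11%), with 5210 at an unadjusted p under 0.05, against 13230 (24.3%) at 0 DAT, 5979 higher (11%) and 7251 lower (13.3%). Of the 93 named transcripts 69 were called between 0 and 4 DAT in heated plants, and 36 of the 93 differed from their change in control plants, 11 of these not with the pool as a block and 15 not on leaving out at least 1 library. By edgeR none was called between heated and control plants at 4 DAT (13 at an unadjusted p under 0.05) or in control plants between 0 and 4 DAT (5).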

How the data were processed

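The authors deposited estimated counts per transcript of 24 RNA-seq libraries. The submitters' processing notes name Trimmomatic and kallisto, while tool versions and the transcript index are not given in the sources used here. Among deposited values 38.8% were not whole, and they were rounded. Of 137056 transcripts, 54517 passed filterByExpr (minimum count 10, minimum total 15). One edgeR model (edgeR 4.0.16, R 4.3.3) with TMM factors held 6 group means over all 24 libraries, and contrasts were tested two-sided with the quasi-likelihood test and Benjamini-Hochberg adjustment over all transcripts (called under 0.05). SE is the log2 difference over the square root of F and is approximate. Replicate numbers mark pools of plants sampled repeatedly, as inferred from the labels. Deviations of same-numbered heated libraries correlated at 0.166, 0.00555, 0.00136 and 0.049 between 0 and 4 DAT, and a fit with the pool as a replicate block was an alternative. The same number was the best match between these days only for replicates 1 and 4. Between 1 and 4 DAT the correlations were -0.0597, -0.0388, -0.322 and -0.305, so the levels do not show the pairing. Depth was 5403461 to 16112270 counts among the 8 libraries.

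Descriptions came from a shortened copy of the study's microRNA target table (595 transcripts with text, 370 tested). The reference gene table matched 0 IDs, so no coordinates are given. Named were, among described calls with at least 5 CPM and no overlap, the 15 highest and 15 lowest changes, then up to 3 calls per list, all tested members of 6 families, 4 transcripts without a description and 3 isoform pairs. Members and lists were chosen with earlier results of these data known. Alternatives were RLE factors, total counts, no filter, likelihood ratio test, DESeq2 1.42.0, counts per gene, identical transcripts once, fewer libraries and each library of 0 and 4 DAT left out. Libraries of 1 DAT were not left out singly.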

Additional observations from a re-analysis of the deposited data

Results flagged for a closer look

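In 15 of 146 groups of 4 libraries tested, 1 library lay so far from the other 3 that its gap passed Dixon's 95% critical value, where chance flags about 1 in 20 groups. Among transcripts, 6 of these groups had replicate 4 of the heated plants at 4 DAT as the library apart. It held the highest level of ATP sulfurylase on 5B (67.7 CPM) and on 5A (64.7 CPM), of tripeptidyl-peptidase 2 (97.6 CPM), of flavonoid 3′-hydroxylase (4.92 CPM), and of TraesCS5B01G462900.1 (68.7 CPM) and TraesCS6A01G094100.1 (62.4 CPM). In the same library the 3 most abundant transcripts held 22.3% of the counts, which also stood apart. Other heated libraries of 4 DAT stood apart for the chitinase on 2B (replicate 3, highest, 30.6 CPM), the receptor kinase TraesCS2B01G007400.3 (replicate 1, lowest, 1.88 CPM), the DNA repair protein TraesCS2A01G208200.1 (replicate 2, highest, 0.826 CPM) and TraesCS5D01G252400.3 (replicate 1, highest, 35.7 CPM). At 0 DAT this held for ATP sulfurylase on 5B (replicate 2, highest, 8.7 CPM) and 5D (replicate 4, lowest, 3.64 CPM), the F-box protein TraesCS6B01G099000.1 (replicate 3, lowest, 1.91 CPM) and TraesCS5B01G462900.1 (replicate 4, highest, 0.393 CPM). No cause was tested.

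For 36 named transcripts the change from 0 to 4 DAT in heated plants differed from that in control plants by edgeR's quasi-likelihood test. The differences (heated minus control, log2) were positive for ATP sulfurylase on 5B (2.49), 5A (2.04) and 5D (2.02), the aldo/keto reductase (2.05), Nod 19 protein TraesCS7A01G264500.1 (1.58), geranylgeranyl reductase (1.42), DUF309 protein TraesCS4D01G124600.1 (1.23), nuclear factor Y (1.19), the branched-chain aminotransferase on 6D (1.12), the F-box and RING proteins (1.03 each), fibrillin on 3A (0.99) and 3D (0.86), TatC (0.91), thioredoxin-like protein (0.89), the kinase TraesCS5D01G145100.1 (0.87), glutaredoxin (0.74), PLASTID MOVEMENT IMPAIRED 1 (0.67) and the cytochrome P450 on 4A (3.66). They were negative for homeobox leucine-zipper TraesCS5A01G375800.1 (-1.74), ferritin (-1.57), the MurE-like ligase (-1.46), ILR1 (-1.37), the RNA helicase on 3B (-1.28), superoxide dismutase on 2B (-1.18), TIR1 TraesCS2B01G302900.1 (-1.06), the branched-chain aminotransferase on 6A (-1.03), SUPPRESSOR OF GENE SILENCING 3 (-0.91) and the aminotransferase on 1B (-0.88). Without a description, TraesCS6A01G094100.1 (8.62), TraesCS5B01G462900.1 (8.23) and TraesCS4A01G068300.1 (-11.89) were fitted against groups at or near a count of 0, so these sizes depend on the prior count. The isoforms differed by 1.51 and -1.43 in TraesCS3D01G337700 and by 1.1 and -3.25 in TraesCS5D01G252400.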

How the results depend on the processing

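Of the 69 named calls in heated plants, 21 held under every alternative (among them geranylgeranyl reductase, superoxide dismutase on 2B, ferritin, nuclear factor Y and the homeobox leucine-zipper on 5A). With total counts alone set aside, 32 held under every other alternative, these 21 included. On leaving out 1 heated library 12 were lost. With the pool as a replicate block in the 8 heated libraries 14 were lost, all 3 copies of ATP sulfurylase among them. Calls in heated plants numbered 6741 without the 4 libraries rich in TraesCS1A01G000100.1, 6566 without heated replicates 2 and 4 of 4 DAT (chosen after seeing the data), 7023 with the pool as a replicate block in the 8 heated libraries and 8614 to 9797 with 1 library left out. With the block in all libraries 9059 were called, and 5 named calls were lost. For the difference from control plants the counts were 2972 and 3452 without those 4 or 2 libraries, 3765 with the block and 4070 to 5867 with 1 left out. Of 36 named differences 21 held whichever library was left out. Control plants had 0 calls with total counts (2584 at an unadjusted p under 0.05) and with the block (2997), 1 with no filter and without the 4 libraries, 2 in the 8 control libraries, 32 per gene, 139 by likelihood ratio, 281 by DESeq2 and 0 to 2 with 1 left out (3183 to 4989 unadjusted). From 0 to 1 DAT the count was 5241 to 6777 with 1 heated library of 0 DAT left out. Libraries of 1 DAT were not left out singly for either leg. From 1 to 4 DAT the count was 2059 with total counts, 2405 with no filter, 2223 with the block, 1047 and 1471 without the 4 or 2 libraries and 5774 by DESeq2. With 1 heated library of 4 DAT left out it was 2122 to 3816. The difference in the share of the 3 most abundant transcripts (4.9 percentage points) was 2.96 to 5.86 with 1 left out (exact permutation p up to 0.0857). Signs turned for Argonaute (-0.03 with total counts) and, in sums per gene, for TraesCS3D01G337700.1 (-0.40, and -0.40 for the difference from control plants), TraesCS2D01G206200.1 (-0.27) and TraesCS5D01G252400.2 (-1.04, and -1.53). The cause was not tested, except that sums per gene add the isoforms.

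With 4 libraries a group, an absent call does not show an unchanged transcript, and under 1 CPM 1.81% of transcripts were called. Counts of near-identical copies on the subgenomes share reads. Intervals of the estimation itself were not used here.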
